A study of Rattus norvegicus with 13 samples.

Results

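Parietal epithelial cells, the lining cells of Bowman's capsule in the kidney, were followed through 5 of their known marker genes across 13 rat kidney arrays, each gene read by 1 probe set. The genes were Cd24, Prom1, Pax8, Cldn1 and Vcam1. They were chosen by name, with earlier results of these data known. Every probe set annotated to exactly 1 of these symbols was taken, which gave 5 of 15923 probe sets. All 5 passed the filter on low signals. Because a single probe set stands for each gene, no second reading on the same arrays could be set beside it.

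All samples were kidney glomeruli of untreated rats aged 18 weeks on a regular diet, and the design text names the strain as Lewis-Hsd. Iron oxide particles were run into a single kidney of each pair, from which a sieve and a magnet then recovered glomeruli, whose purity under phase contrast was stated as above 99%. Those unamplified samples form the sieved group (titled iron, n = 4). From the other kidney, glomerular profiles were taken out of 10 µm tissue sections by laser capture microdissection, which cuts cells under the microscope, and their RNA was amplified in 2 rounds. They make up the groups LCM800 (n = 5) and LCM20 (n = 4), named after their titles. The protocol gives the same number of glomerular profiles, about 800, for both groups, and what the 20 stands for is not stated. The extraction text of the sieved samples also mentions anti-Thy1.1 rats, and the description field of all samples speaks of embryos, neither of which matches the other fields. The labels do not say whether Bowman's capsule was inside the captured area, or whether the capsule stayed on the sieved glomeruli.

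Parietal epithelial cells are the flat cells that line Bowman's capsule, the cup around the glomerular capillary tuft. They continue into the proximal tubule at the urinary pole and meet the podocytes at the vascular pole, and some of them are regarded as a reserve of progenitor cells. Cd24 encodes a small, heavily glycosylated surface protein anchored to the membrane by a lipid, and Prom1 encodes prominin-1 (CD133), a pentaspan protein of membrane protrusions. The pair is used to pick out these progenitor cells in human kidney. Pax8 encodes a paired-box transcription factor of the nephron lineage, Cldn1 encodes claudin-1, a tight junction strand protein, and Vcam1 encodes an adhesion receptor for leukocyte integrins. None of the 5 is confined to parietal cells. Prominin-1 and Pax8 are also made in tubule epithelium, Cd24 in distal tubule, and Vcam1 in activated endothelium.

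Markers of glomerular and tubule cells were read first. The 10 podocyte markers with a probe set had mean signals above the pseudocount of 65.3 intensity units in every group. So had all 10 glomerular endothelial markers and all 19 proximal tubule markers. Summed over these 19 genes, the proximal tubule list had signals of 90118 to 172542 in sieved arrays, 29814 to 63311 in LCM800 arrays and 23928 to 62371 in LCM20 arrays. The podocyte sum ran from 18983 to 47914, from 42037 to 74400 and from 37209 to 55499 in the same order. Some arrays stood apart from their group. Sieved replicate 3 had the lowest proximal tubule sum of its group and the highest podocyte and endothelial sums, and it correlated with the other sieved arrays at r = 0.87 to 0.90, against 0.96 to 0.98 among those. LCM800 replicates 4 and 5 correlated at 0.94 with each other and at 0.72 to 0.81 with replicates 1 to 3. Many counts of called genes and list medians that moved without sieved replicate 3, without LCM800 replicates 1, 2 and 3 or without LCM800 replicates 4 and 5 are given beside each list. Not all are printed, so an unprinted value may have moved too. The signal of the 3′ end of β-actin exceeded that of the 5′ end by 0.55 ± 0.02 on the log2 scale in sieved arrays (SD, n = 4), 2.77 ± 1.03 in LCM800 arrays (n = 5) and 1.80 ± 0.45 in LCM20 arrays (n = 4). The exact two-sided permutation p was 0.0159 for LCM800 and 0.0286 for LCM20 against sieved, which are the smallest that these group sizes allow. Adjusted over 6 tests they were 0.0476 and 0.0571. For Gapdh the same difference was 0.52 ± 0.15, 1.22 ± 0.49 and 1.14 ± 1.38 (SD; exact p = 0.0159 and 0.543 against sieved). Within LCM800 the β-actin difference was 2.80, 3.54 and 4.01 in replicates 1 to 3, and 1.78 and 1.71 in replicates 4 and 5. That of Gapdh was 1.24, 1.11 and 1.08, and 2.02 and 0.68, in the same order. How far the tubule level or the 3′ shift accounts for any change below was not tested.

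In what follows a level is log2(signal + 65.3), a change is a difference of mean levels ± SE from limma, and adjusted p values are two-sided over all 11106 probe sets tested, with a threshold of 0.05. Against sieved glomeruli, LCM800 samples had 3 of the 5 genes lower (Cd24, Prom1 and Pax8), while Cldn1 and Vcam1 did not pass. Of all probe sets tested 51.9% passed in that comparison, 20.1% lower and 31.8% higher. In LCM20 samples 4 were lower (Cd24, Prom1, Pax8 and Cldn1) and Vcam1 was higher, where 45.3% of all probe sets passed, 19.2% lower and 26.2% higher. The median change of the 5 genes was that of Pax8 in LCM800 (−1.64) and that of Prom1 in LCM20 (−1.5003), beside 0.22 and 0.17 over all probe sets tested. The 2 comparisons share the sieved arrays. Sample ranges did not overlap for 2 of the 5 genes in LCM800 (42.8% of all probe sets) and for 4 of 5 in LCM20 (43.8%). In whole glomeruli, fewer cells of a type and less RNA per cell cannot be told apart. Sieved arrays were unamplified and all microdissected arrays were amplified, so isolation method and amplification cannot be told apart in either comparison with sieved glomeruli.

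**Figure D1:**
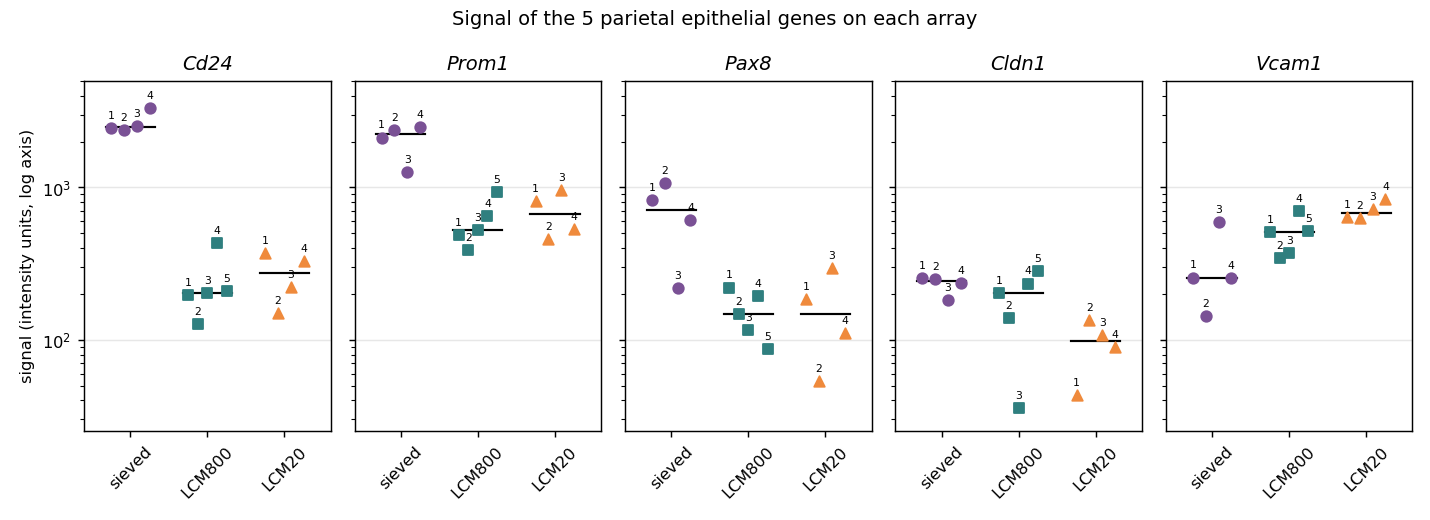
Signal in intensity units (log axis) of each gene on each of the 13 arrays, by group, with the replicate number of the title above each point and the group median as a bar. All sieved arrays lie above all microdissected arrays for Cd24 and Prom1, and all LCM20 arrays lie above all sieved arrays for Vcam1.

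**Figure D2:**
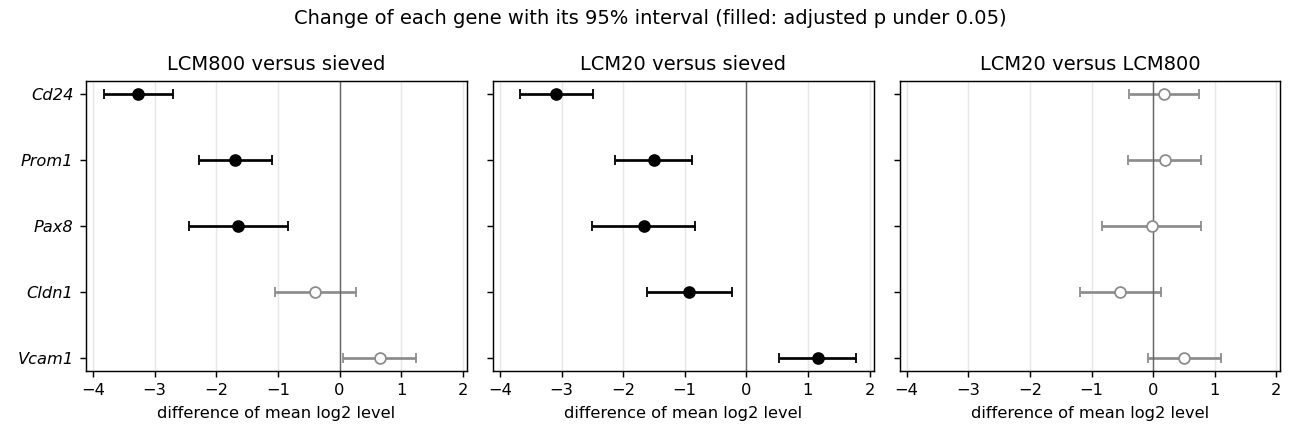
Difference of mean log2 level with its 95% interval for each gene in the 3 comparisons; filled points have an adjusted p under 0.05. Cd24 lies farthest below 0 in both comparisons with sieved glomeruli, and no gene passed between LCM20 and LCM800.

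Upstream sequence is given for the 3 genes that fell in both comparisons and for Vcam1, which moved the other way. Each line holds the 250 bases before the annotated start of transcription in RefSeq, build GRCr8, 5′ to 3′ on the gene's strand. All 5 genes matched the RefSeq table, Prom1 with 2 starts, of which the upstream one is shown. Capitals mark matches, on either strand, to 4 motifs: a form of the NF-κB site (GGG, any base, TT, any base, CCC), TATAAA, the TATA box, GGGCGG, the GC box, and CCAAT.
Cd24, chr20:48656227-48656476, plus strand: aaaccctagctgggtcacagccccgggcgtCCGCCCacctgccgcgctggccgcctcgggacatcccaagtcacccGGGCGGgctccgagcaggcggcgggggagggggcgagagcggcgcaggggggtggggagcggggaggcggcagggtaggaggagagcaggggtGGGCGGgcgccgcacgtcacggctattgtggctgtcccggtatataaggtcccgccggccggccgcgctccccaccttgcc
Prom1, chr14:71202395-71202644, plus strand: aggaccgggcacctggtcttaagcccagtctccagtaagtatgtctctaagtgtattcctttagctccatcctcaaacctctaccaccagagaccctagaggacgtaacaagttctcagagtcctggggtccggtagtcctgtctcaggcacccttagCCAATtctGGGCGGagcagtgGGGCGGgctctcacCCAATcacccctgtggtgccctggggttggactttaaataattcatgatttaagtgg
Pax8, chr3:27640632-27640881, minus strand: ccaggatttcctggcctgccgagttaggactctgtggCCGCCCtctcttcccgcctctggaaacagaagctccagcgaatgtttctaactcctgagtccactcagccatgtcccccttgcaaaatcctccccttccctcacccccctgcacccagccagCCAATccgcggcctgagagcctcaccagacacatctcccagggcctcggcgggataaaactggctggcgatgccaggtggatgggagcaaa
Vcam1, chr2:206742784-206743033, minus strand: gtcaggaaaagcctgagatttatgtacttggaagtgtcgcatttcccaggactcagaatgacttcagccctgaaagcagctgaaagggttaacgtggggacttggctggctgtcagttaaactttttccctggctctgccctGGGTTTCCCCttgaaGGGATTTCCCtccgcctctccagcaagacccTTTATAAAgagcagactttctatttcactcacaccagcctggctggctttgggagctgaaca
The Vcam1 window held 2 matches to the NF-κB motif, 108 and 93 bases before the start, and a TATA box whose forward and reverse matches overlap, 60 and 62 bases before it. Of 33469 rat promoter windows of this length 1.46% held the NF-κB motif at least once and 0.0956% held it at 2 or more places. A paired κB site is textbook knowledge for the Vcam1 promoter, so the matches and their rarity add no independent evidence. TATAAA was present in 12.9% of windows. The GC box was found 3 times before Cd24, 2 times before Prom1 and 1 time before Pax8, and in 30.5% of all windows. CCAAT was found 2 times before Prom1 and 1 time before Pax8, and in 34% of windows. The Cd24 window was 75.6% G or C, beside a median of 51.2% over all windows. These matches describe the letters and were not measured as binding.

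Cd24 had the largest change of the 5 genes. Its signals on sieved arrays were 2473, 2399, 2534 and 3318, at the 94.9th to 97.0th percentile of their arrays. On LCM800 arrays they were 197, 126, 201, 430 and 210, and on LCM20 arrays 373, 151, 222 and 327. Every microdissected array was below every sieved array, and the nearest pair, sieved replicate 2 and LCM800 replicate 4, still differed by a ratio of 5.57. The level fell by 3.26 ± 0.27 in LCM800 (n = 5 and 4; adjusted p = 3.30e-07) and changed by −3.08 ± 0.28 in LCM20 (n = 4 and 4; adjusted p = 1.06e-06). Mean signals went from 2681 to 233 and 268, ratios of 11.5 and 10.0. Only 86 of the 11106 probe sets had a lower change in LCM800 and 125 in LCM20. The order of mean levels was sieved, LCM20, LCM800. The microdissected groups did not differ beyond their spread, with LCM20 minus LCM800 at 0.18 and a 95% interval of −0.38 to 0.75 (adjusted p = 0.756). Sieved replicate 3, where the proximal tubule sum was lowest, had the second highest Cd24 signal of its group, and without that array the LCM800 change was −3.29. Leaving out any 1 array gave values from −3.47 to −3.12.

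Prom1, the partner of Cd24 in marker panels, fell in both comparisons too. Sieved arrays read 2129, 2376, 1259 and 2506, LCM800 arrays 490, 391, 524, 653 and 940, and LCM20 arrays 813, 461, 963 and 533. The groups did not overlap, but sieved replicate 3 was low and came within a ratio of 1.31 of LCM20 replicate 3. The level fell by 1.69 ± 0.28 in LCM800 (n = 5 and 4; adjusted p = 0.000153) and changed by −1.5003 ± 0.30 in LCM20 (n = 4 and 4; adjusted p = 0.000783). Mean signals were 2067 in sieved, 600 in LCM800 and 693 in LCM20 arrays, so that sieved exceeded LCM800 by a ratio of 3.45 and LCM20 by 2.98. The median within-array percentile of Prom1 went from 94.5 in sieved to 68.5 in LCM800 and 74.97 in LCM20 arrays. LCM20 and LCM800 were 0.19 apart (95% interval −0.40 to 0.78; adjusted p = 0.758).

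Pax8, the transcription factor among the 5, fell by a similar amount with a wider spread. Its sieved signals were 821, 1071, 219 and 611. LCM800 arrays read 220, 147, 116, 195 and 87.3, and LCM20 arrays 185, 53.3, 298 and 111. Sieved replicate 3 lay within the range of both microdissected groups, while the other 3 sieved arrays were above all 9 microdissected arrays. The level fell by 1.64 ± 0.38 in LCM800 (n = 5 and 4; adjusted p = 0.00200) and changed by −1.67 ± 0.40 in LCM20 (n = 4 and 4; adjusted p = 0.00315), with mean signals of 681, 153 and 162. Without sieved replicate 3 the falls were larger, at −2.05 and −2.08. LCM20 replicate 2, at 53.3, lay under the pseudocount. The difference between LCM20 and LCM800 was −0.03, with a 95% interval of −0.82 to 0.77 (adjusted p = 0.978).

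Cldn1 had a median within-array percentile of 47.8 in sieved, 36.0 in LCM800 and 26.6 in LCM20 arrays. Sieved arrays read 255, 250, 182 and 237, LCM800 arrays 201, 138, 35.8, 234 and 284, and LCM20 arrays 43.7, 135, 108 and 89.7. The LCM800 arrays spread across and beyond the sieved range, and the LCM20 arrays all lay below it. LCM800 replicate 3, at 35.8, and LCM20 replicate 1, at 43.7, lay under the pseudocount. The level changed by −0.39 ± 0.31 in LCM800 without passing (n = 5 and 4; 95% interval −1.05 to 0.26; adjusted p = 0.299). In LCM20 it fell by 0.92 ± 0.33 (n = 4 and 4; adjusted p = 0.0301). Leaving out sieved replicate 1 took the adjusted p to 0.0710, past the threshold, as did leaving out sieved replicate 2 (0.0691) or 4 (0.0642) or LCM20 replicate 1 (0.0907) or 4 (0.0511). Across the alternatives it ran between 0.00346 and 0.0907. In LCM800 the change turned to 0.13 without replicates 1, 2 and 3 of that group (adjusted p = 0.701), and with array weights it passed at −0.82 (adjusted p = 0.00673). LCM20 was 0.53 below LCM800 by the means, a difference of −0.53 with an interval of −1.19 to 0.12 that did not pass (adjusted p = 0.379).

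Vcam1 went the other way. Sieved arrays read 256, 143, 590 and 255, LCM800 arrays 510, 345, 372, 702 and 521, and LCM20 arrays 637, 626, 726 and 844. All LCM20 arrays were above all sieved arrays, while sieved replicate 3 lay inside the LCM800 range. In LCM20 the level rose by 1.16 ± 0.30 (n = 4 and 4; adjusted p = 0.00499), a ratio of 2.28 between mean signals. In LCM800 it changed by 0.65 ± 0.28 and did not pass (n = 5 and 4; 95% interval 0.06 to 1.25; adjusted p = 0.0612). Without sieved replicate 3 it passed in LCM800 at 0.96 (adjusted p = 0.00406), without LCM800 replicate 2 at 0.75 (0.0450), without LCM800 replicates 1, 2 and 3 at 0.96 (0.0384) and with array weights at 0.75 (0.00916). The range over the alternatives was 0.00406 to 0.238. The order of mean levels was LCM20, LCM800, sieved. Neither neighbouring pair in that order passed, and LCM20 minus LCM800 was 0.51 with an interval of −0.09 to 1.10 (adjusted p = 0.357).

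None of the 5 genes differed between the microdissected groups in limma, and none had an unadjusted p under 0.05 there. In that comparison 0.153% of all probe sets passed (0.072% higher and 0.081% lower), which is 17 of 11106. That share was unstable, since the count was 859 with array weights, 2581 without LCM800 replicates 4 and 5, 502 without LCM800 replicate 4, 195 without LCM800 replicate 5 and 0 when sieved replicate 1 or 2, LCM800 replicate 1, 2 or 3 or LCM20 replicate 2 was left out. The sample ranges of all 5 genes overlapped, and 3.84% of all probe sets had ranges that did not. The intervals above run up to 1.19 in size, so differences of that order are not excluded by these 9 arrays. With array weights, without LCM800 replicates 4 and 5, and in each fit that left out 1 array, the count of the 5 genes called was also 0.

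**Figure D3:**
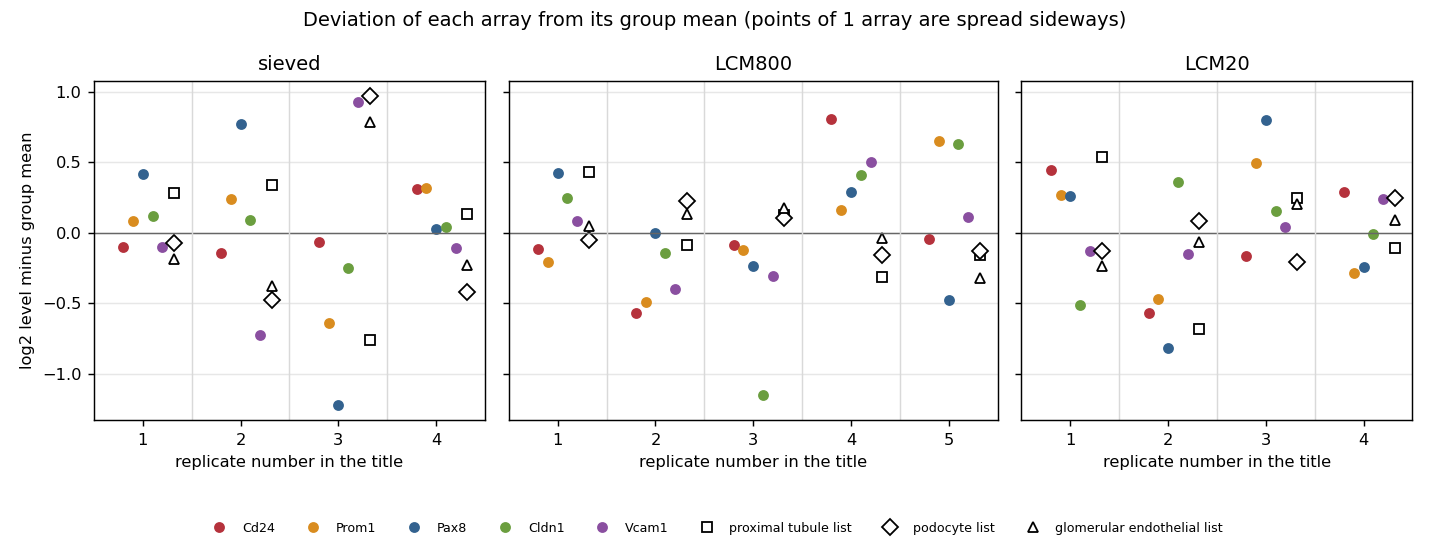
Log2 level minus the group mean, by replicate number of the title, for the 5 genes (coloured points) and for the mean of 3 marker lists (open symbols). In sieved replicate 3 Pax8 and Prom1 lie below their group mean with the proximal tubule list, Vcam1 lies above with the podocyte and endothelial lists, and Cd24 lies near its mean.

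The 5 genes did not vary as one within groups. As deviations from the group mean over the 13 arrays, Prom1 and Pax8 had r = 0.56, Cd24 and Prom1 0.40, Cd24 and Vcam1 0.40, and Pax8 and Vcam1 −0.50. Cd24 and Cldn1 had 0.0016. In sieved replicate 3 the deviations were −1.22 for Pax8, −0.64 for Prom1, −0.25 for Cldn1, −0.07 for Cd24 and 0.93 for Vcam1. In sieved replicate 2 they were 0.78 for Pax8 and −0.73 for Vcam1. The negative r of Pax8 with Vcam1 comes mainly from sieved replicates 2 and 3. Among LCM800 arrays, replicate 4 had the highest Cd24 and Vcam1 signals, and replicate 5 the highest Prom1 and Cldn1 signals and the lowest Pax8 signal.

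Genes with the most similar profile were sought among 8038 other tested genes by Pearson's r of levels over the 13 arrays. These r values largely carry the differences between groups, so r of the deviations from group means is given as well. Cd24 was closest to Dab2, an endocytic adaptor (r = 0.99; 0.88 for deviations), Adipor1, an adiponectin receptor (0.99; 0.77), and Slc4a4, a sodium bicarbonate cotransporter (0.98; 0.65). Prom1 was closest to Fmo1, a flavin monooxygenase (0.98; 0.93), Folh1, a folate hydrolase (0.98; 0.89), and C8h11orf54 (0.97; 0.90). Pax8 was closest to Slc4a2, an anion exchanger (0.98; 0.97), Hdac6, a cytoplasmic deacetylase (0.97; 0.92), and Cdo1, cysteine dioxygenase (0.97; 0.91). For Cldn1 the values were lower, with Adam10, a membrane protease, at 0.84 (0.71), Vps54 at 0.83 (0.72) and the kinase gene Map3k7 at 0.80 (0.62). Vcam1 was closest to Vamp3, a vesicle fusion protein (0.92; 0.83), the kinase gene Map3k20 (0.91; 0.80) and Pde4dip (0.91; 0.89).

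Over all probe sets tested, 20.1% were lower and 31.8% higher in LCM800, and 19.2% lower and 26.2% higher in LCM20. List counts from here on are to be read beside these shares. In LCM800, 5487 of 11106 probe sets passed without sieved replicate 3, beside 5764 with all arrays. The total was 5161 without LCM800 replicates 1, 2 and 3, and 6102 without LCM800 replicates 4 and 5. Another 15 genes linked to parietal cells were listed, of which 13 had a probe set and 10 passed the filter. Pax2, the paired-box relative of Pax8, was not represented by a probe set of 1 symbol. In LCM800 samples 6 of the 10 were lower and 3 higher, with a median of −0.86, and in LCM20 samples 4 were lower and 2 higher, with a median of −0.45. Leaving out sieved replicate 3 gave 6 lower and 2 higher in LCM800, and 5 and 2 in LCM20 with a median of −0.65. In LCM800, 4 were lower and 2 higher without its replicates 1, 2 and 3 (median −0.59), and 5 and 2 without its replicates 4 and 5 (median −0.77). Cd9, a tetraspanin, fell most of the list. Its mean signal was 3609 in sieved, 162 in LCM800 and 153 in LCM20 arrays, with changes of −3.97 ± 0.33 (n = 5 and 4; adjusted p = 3.53e-07) and −3.93 ± 0.35 (n = 4 and 4; adjusted p = 9.07e-07). Cldn2, the claudin of leaky proximal tubule junctions, fell as well, with changes of −2.29 and −2.52 (adjusted p = 3.17e-05 and 3.05e-05). Dkk3 and Aldh1a2 rose in both comparisons. Dkk3, a secreted protein of the dickkopf family, rose by 1.57 and 1.09 (adjusted p = 4.43e-05 and 0.00161), and Aldh1a2, a retinoic acid synthesising enzyme, rose by 1.39 and 1.63 (adjusted p = 0.0109 and 0.00694). The Aldh1a2 rise in LCM800 was 0.79 without replicates 4 and 5 of that group and did not pass (adjusted p = 0.0746). Summed over the 13 genes, signals were 10449 to 11676 in sieved, 4504 to 6416 in LCM800 and 4431 to 6157 in LCM20 arrays.

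Cldn1 was set beside 18 other claudin and tight junction genes, 12 with a probe set and 10 past the filter. In LCM800 3 were lower and 1 higher, and in LCM20 5 were lower and 1 higher, with medians of 0.20 and −0.32. The LCM800 median turned to −0.43 without LCM800 replicates 1, 2 and 3. Without sieved replicate 3 it was 0.063 with 4 lower, and the LCM20 median was −0.69 with 5 lower and 2 higher. Without LCM800 replicates 4 and 5, 4 were lower and 2 higher in LCM800, with a median of 0.30, and 5 and 2 in LCM20. Cldn10, a claudin that forms ion-selective pores along the tubule, fell, with changes of −2.90 and −3.31 (adjusted p = 6.30e-06 and 4.40e-06). Cldn19, a claudin of the thick ascending limb, fell by 2.32 in LCM800 (adjusted p = 3.24e-05). The scaffold gene Tjp1 (ZO-1) rose by 1.35 in LCM20 (adjusted p = 0.00860) and by 0.94 in LCM800 (adjusted p = 0.0376). The LCM800 call of Tjp1 ended when sieved replicate 1, 2 or 4 or LCM800 replicate 4 or 5 was left out (adjusted p up to 0.120), and was 0.205 without both of the last.

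Among 14 genes of vascular adhesion, integrin ligands and NF-κB, 10 had a probe set and 8 passed the filter. In LCM800 4 were higher and 1 lower, with a median of 0.76, and in LCM20 3 were higher and 1 lower, with a median of 0.23. With sieved replicate 3 left out, 4 were higher and 0 lower in LCM800, and 4 and 1 in LCM20 with a median of 0.44. Without LCM800 replicates 1, 2 and 3, 2 were higher and 1 lower in LCM800, with a median of 0.41, and 3 and 2 in LCM20. Without LCM800 replicates 4 and 5 the counts were 4 and 0 in LCM800, and 3 and 2 in LCM20. Itgb7, the β7 subunit of integrins that bind Vcam1 and Madcam1, rose by 1.38 and 1.39 (adjusted p = 3.32e-05 and 6.51e-05). Its partner Itga4 was not represented by a probe set of 1 symbol. Rela, the p65 subunit of NF-κB, rose by 1.03 and 1.25 (adjusted p = 0.00154 and 0.000661). Nfkbia, the inhibitor IκBα, fell by 1.84 in LCM800 (adjusted p = 0.0121) and changed by −2.71 in LCM20 (adjusted p = 0.00168), where its mean signal of 55.0 lay under the pseudocount. In LCM800 Nfkbia did not pass once sieved replicate 3 was left out (−1.29; adjusted p = 0.0535), nor once LCM800 replicates 4 and 5 were (−1.21; 0.0746). Icam2, an endothelial adhesion molecule, rose by 1.34 in LCM20 (adjusted p = 0.0163). Leaving out sieved replicate 1 (0.0518), sieved replicate 2 (0.0626) or LCM20 replicate 4 (0.0512) took its adjusted p past the threshold. In LCM800 Icam2 changed by 0.96 (adjusted p = 0.0520) and passed without sieved replicate 3 (1.39; 0.00417), LCM800 replicate 5 (1.22; 0.0131) or LCM800 replicates 4 and 5 (1.38; 0.00800).

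Pax8 was set beside 15 nephron transcription factor genes, of which only 6 had a probe set, and all 6 passed the filter. In LCM800 3 were lower and none higher, and in LCM20 2 were lower and none higher, with medians of −0.50 and −0.83. Without sieved replicate 3 these counts were 2 lower and 1 higher, and 3 lower. Without LCM800 replicates 1, 2 and 3 they were 2 lower, with a median of −0.84, and 4 lower. Without LCM800 replicates 4 and 5 they were 3 lower, with a median of −0.17, and 4 lower. Hnf4a, a nuclear receptor of the proximal tubule, fell by 1.62 ± 0.35 in LCM800 (n = 5 and 4; adjusted p = 0.00121) and changed by −2.08 ± 0.36 in LCM20 (n = 4 and 4; adjusted p = 0.000302). Emx2, a homeobox gene of the developing nephron, had changes of −0.69 and −0.86 (adjusted p = 0.0152 and 0.00662). In LCM800 Emx2 did not pass once sieved replicate 1 (0.0509), sieved replicate 2 (0.0655) or LCM800 replicates 1, 2 and 3 (0.0870) were left out. Hnf4a is also in the proximal tubule list, Cldn2 is in 2 lists, and Wt1, Tcf21 and Gata3 are each shared with a glomerular list.

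**Figure D4:**
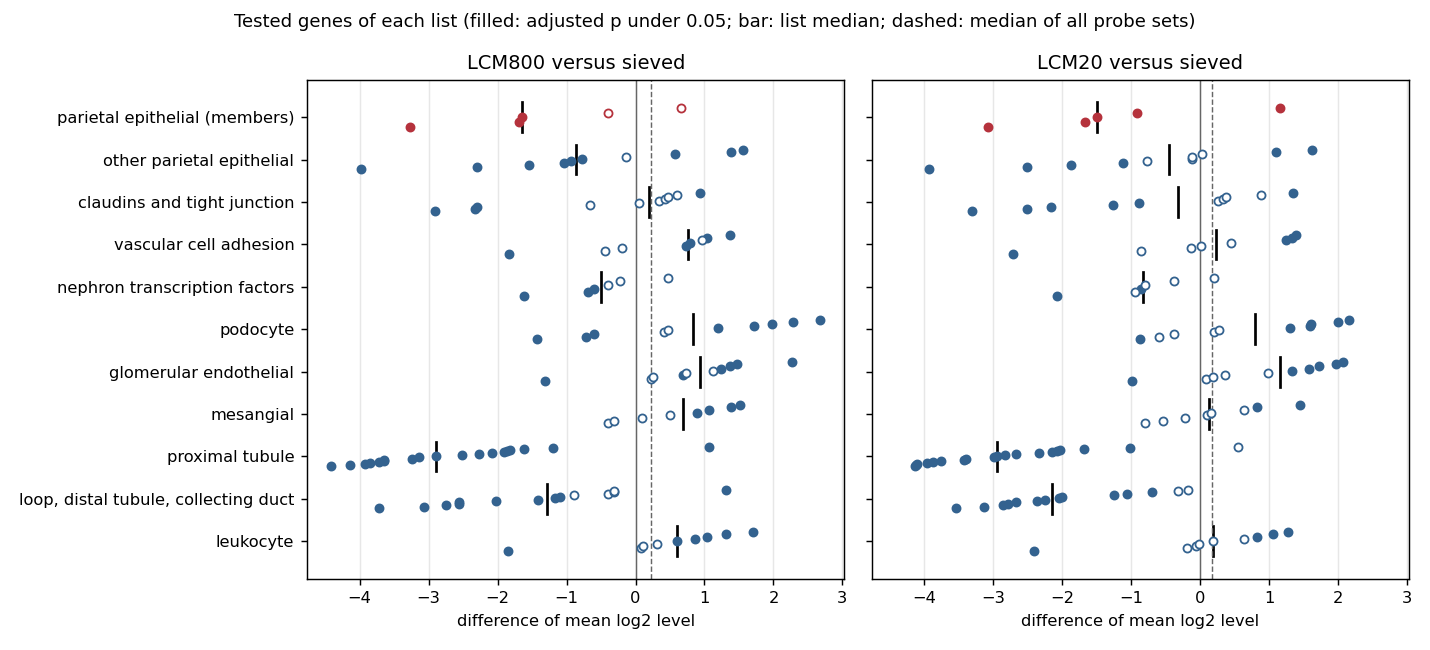
Difference of mean log2 level of every tested gene of each list in the 2 comparisons with sieved glomeruli; filled points have an adjusted p under 0.05, bars are list medians and the dashed line is the median of all probe sets tested. The list ranges overlap, in part through single genes. Prom1 and Pax8 lie within the ranges of the tubule, claudin and other parietal lists, and within that of the adhesion list only through Nfkbia. Vcam1 in LCM800 lies within the ranges of the podocyte, endothelial and adhesion lists. It lies within those of the tubule lists only through Pck1 and Aqp2.

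The tubule lists are given beside these results because the 3 genes that fell in both comparisons are also known from tubule cells. Of the 19 tested proximal tubule genes 18 fell and 1 rose in LCM800, with a median of −2.90, and 18 fell in LCM20, with a median of −2.95. The single rise, of Pck1, was 0.62 with adjusted p = 0.125 once LCM800 replicates 1, 2 and 3 were left out. The enzyme gene Ass1 had the largest falls of the list, with changes of −4.41 and −4.13 (adjusted p = 9.30e-08 and 4.51e-07). Of 14 tested loop, distal tubule and collecting duct genes 9 fell and 1 rose in LCM800 and 12 fell in LCM20, with medians of −1.29 and −2.15. In LCM800 11 fell and 0 rose without sieved replicate 3, with a median of −1.69. There 8 fell and 0 rose without LCM800 replicates 1, 2 and 3, and 10 fell and 1 rose without LCM800 replicates 4 and 5. The gene that rose, Aqp2, had adjusted p = 0.0533 and 0.185 in the first 2 of these. Their summed signals, over 15 genes, were 25998 to 55354 in sieved, 18488 to 24705 in LCM800 and 6953 to 17579 in LCM20 arrays. The tissue kallikrein gene Klk1 fell, with changes of −3.72 and −3.55 (adjusted p = 3.31e-07 and 1.04e-06). The Cd24 changes of −3.26 and −3.08 were below both list medians in each comparison, and those of Prom1 and Pax8 lay above the proximal tubule median. The only tubule marker with a mean signal under the pseudocount was Pvalb. The part of tubule RNA in the falls of Cd24, Prom1 and Pax8 was not tested.

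Vcam1 lay above its group mean with the glomerular lists in sieved replicate 3. Vcam1 was highest in LCM800 replicate 4, where the mean podocyte level was lowest (11.26). It was lowest in LCM800 replicate 2, where the mean podocyte level was highest (11.64). Among LCM20 arrays both were highest in replicate 4. The mean endothelial level was highest in LCM800 replicate 3 (10.57) and in LCM20 replicate 3 (10.72). The mean leukocyte level was highest in LCM800 replicate 1 (9.33) and in LCM20 replicate 4 (9.17). Among sieved arrays the leukocyte level was lowest in replicate 3 (8.61). The glomerular lists read as follows. Of 10 tested podocyte genes 5 were higher and 3 lower in LCM800, and 5 and 1 in LCM20, with medians of 0.83 and 0.79. Without sieved replicate 3 the counts were 7 and 1 (median 1.22) in LCM800, and 6 and 0 (median 1.16) in LCM20. Without LCM800 replicates 1, 2 and 3 the LCM800 counts were 4 and 1. Of 10 glomerular endothelial genes 5 were higher and 1 lower in both comparisons, with medians of 0.93 and 1.15. Leaving out sieved replicate 3 gave 7 and 1 (median 1.36) in LCM800, and 6 and 1 (median 1.58) in LCM20. In LCM800 they were 4 and 1 without its replicates 1, 2 and 3 (median 0.39), and 6 and 1 without its replicates 4 and 5. The endothelial factor gene Egfl7 rose by 2.27 and 2.07 (adjusted p = 1.75e-05 and 8.32e-05). The summed endothelial signal of sieved replicate 3, 21656, lay within the LCM800 range of 18978 to 23387, and the other 3 sieved arrays had at most 8527. Of 8 mesangial genes 4 and 2 were higher and none lower, with medians of 0.70 and 0.12. The LCM20 count lies near the 26.2% of all probe sets that were higher there. Without LCM800 replicates 1, 2 and 3, 2 were higher and 1 lower in both comparisons, the lower one being Gata3, a transcription factor gene (−1.46 with adjusted p = 0.00431 in LCM800, −0.80 with 0.0296 in LCM20). Without LCM800 replicates 4 and 5 the LCM20 counts were 2 and 1, and without sieved replicate 3 they were 3 and 0, with a median of 0.26. Of 9 leukocyte genes 5 were higher and 1 lower in LCM800, and 3 and 1 in LCM20, with medians of 0.60 and 0.19. The LCM20 count of higher genes was again near the share over all probe sets. In LCM800 the counts were 4 and 1 without sieved replicate 3, 6 and 1 without LCM800 replicates 1, 2 and 3 (median 0.92), and 3 and 1 without LCM800 replicates 4 and 5. In LCM20 they were 4 and 1 without either set of LCM800 arrays. The part of endothelial or leukocyte RNA in the Vcam1 values was not tested.

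**Figure D5:**
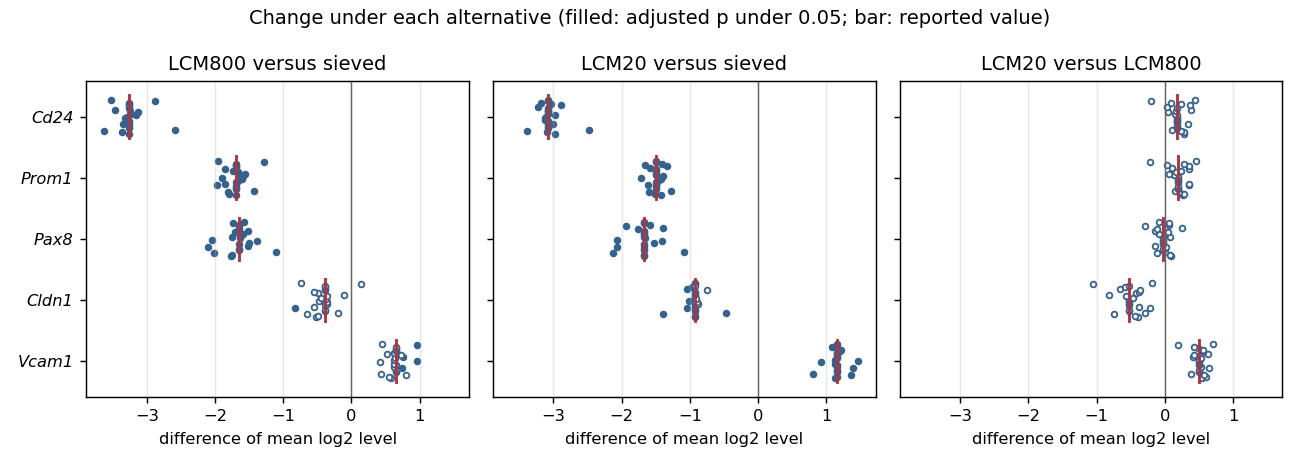
Difference of mean log2 level of each gene under each alternative setting; filled points have an adjusted p under 0.05 and the bar is the reported value. Cd24, Prom1 and Pax8 passed in every setting run against sieved glomeruli, as did Vcam1 in LCM20.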

How the data were processed

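The authors deposited linear signals in intensity units for 13 one-colour Affymetrix Rat 230A arrays, 1 column per sample. The submitters' processing notes name MAS5; other steps are not given in the sources used here. The mean of each array without the 2% of values at each end was 500.1, so no further scaling was applied. The pseudocount of 65.3 is the 20th percentile of all signals, and it makes changes of dim genes smaller than their signal ratios. The 57 control probe sets and the lowest 30% by mean level were left out, leaving 11106. Symbols came from the platform table (12789 probe sets with 1 symbol, 312 with several), updated through gene IDs. A list gene was read by its probe set with the highest mean level.

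One limma fit (version 3.58.1, under R 4.3.3) held all 3 groups, its eBayes step following the intensity trend, and p values were adjusted by Benjamini-Hochberg over all probe sets tested. The fit was tested on simulated data. Control ratios used exact two-sided permutation tests. The value table gives no detection calls. Precision is limited by how many arrays there are. The titles call the replicates biological. Named genes are the 5 members, up to 2 largest calls per list and direction, and the 3 closest profiles per member; not all of them are printed, and other genes named, such as Pvalb and Gata3, were chosen after their values were seen. The members and lists were chosen with earlier results of these data known. A planned test between probe sets of 1 gene was not run, since each gene has 1. Alternatives were quantile normalization, equal medians, other pseudocounts and filters, no trend, array weights, a replicate block, only the groups compared, and left-out arrays. The list counts without arrays that stand apart were added after seeing the data.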

Additional observations from a re-analysis of the deposited data

Results flagged for a closer look

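In sieved replicate 4 the Cd24 level was 11.72, above 11.27 to 11.34 in the other 3 sieved arrays, a gap large for the range of its group. The mean level of the glomerular endothelial list in sieved replicate 3 was 10.38, above 9.21 to 9.41 in the other sieved arrays. The 5 genes and 5 list means were looked at in 3 groups each, and chance marks about 1 in 20 groups this way.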

How the results depend on the processing

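Each gene was refitted under up to 25 alternatives. Cd24, Prom1 and Pax8 against sieved, and Vcam1 in LCM20 against sieved, kept their direction and passed in all that were run. A filter dropping the lowest 60% left Pax8 and Cldn1 untested. With that filter 3504 of 6347 probe sets passed in LCM800 and 3259 in LCM20, and 3 of 3 genes in LCM20, fewer being tested. With array weights all 5 genes passed in LCM800 against sieved, where 7408 of all 11106 probe sets tested passed as well. The total of 17 between LCM20 and LCM800 was 10 with no pseudocount, 10 with no filter, 859 with array weights, 0 with only the 2 groups compared, 2581 without LCM800 replicates 4 and 5, and 0 to 502 when 1 array was left out; the cause was not tested. The highest of these came without LCM800 replicate 4. Without LCM800 replicates 1, 2 and 3, Cldn1 in LCM800 against sieved turned to 0.13, and LCM20 minus LCM800 turned to −0.20 for Cd24, −0.22 for Prom1 and 0.068 for Pax8. The Pax8 difference, −0.03, was also 0.091 with quantile normalization, 0.072 with equal medians, 0.0074 with 4 times the pseudocount, 0.024 with array weights, and −0.29 to 0.25 with 1 array left out. Equal medians moved the median of all probe sets by −0.11 in LCM800 against sieved.

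Same-numbered samples of different groups deviated with r from −0.24 to 0.23, above 0.1 for 1 of 4 pairs in each comparison, so the numbers were not taken to pair samples. With the replicate number as a block 5452, 4874 and 0 probe sets passed in the 3 comparisons, and of the 5 genes 3, 5 and 0, the same counts as without it.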

Other observations

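Pairs of related genes in the parietal list, chosen after their values were seen, had changes of opposite sign in LCM800 against sieved glomeruli. The keratin gene Krt8 fell by 1.04 (adjusted p = 0.00188 in limma), while its partner Krt18 was 0.58 higher (adjusted p = 0.0432) but failed the threshold when sieved replicate 1, 2 or 3 or LCM800 replicate 1, 2 or 3 was left out. In LCM20 Krt8 fell by 1.12 (adjusted p = 0.00198) and Krt18 was at 0.02 (adjusted p = 0.946). Of the retinaldehyde dehydrogenase genes, Aldh1a1 had a mean signal of 2474 in sieved, 1361 in LCM800 and 1464 in LCM20 arrays, and Aldh1a2 392, 1214 and 1371. Aldh1a1 changed by −0.78 in LCM800 (adjusted p = 0.0439 in limma) and did not pass in LCM20 (adjusted p = 0.0624). The LCM800 call of Aldh1a1 ended when sieved replicate 1, 2 or 4 or LCM800 replicate 1, 2, 3 or 4 was left out. It also ended without LCM20 replicate 1 or 4. The difference between the members of each pair was not tested. Lad1, a basement membrane anchoring protein gene of the same list, fell by 1.55 in LCM800 (adjusted p = 0.0129) and changed by −1.87 in LCM20 (adjusted p = 0.00699). Leaving LCM800 replicates 4 and 5 out gave −0.79 in LCM800 (adjusted p = 0.0935).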
